A study of Caenorhabditis elegans with 6 samples.

Results

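The double mutant *daf-16(mgDf50);daf-2(e1370)*, written *daf-16(-);daf-2(-)*, was compared with wild type (WT, N2 Bristol) by RNA-seq. The comparison uses the 2 *daf-16(-);daf-2(-)* libraries and the 2 WT libraries, chosen by their genotype labels, which are 4 of the 6 libraries in all. The other 2 libraries are *daf-2(e1370)*, written *daf-2(-)*, and are given here beside the comparison as a description. All strains were grown as mixed-stage cultures on *E. coli* OP50 at 20 °C, and the double mutant carries the same *daf-2* allele as the single mutant. The study asked which genes DAF-16 controls when insulin signalling is low. The double mutant against WT shows what differs when the receptor is impaired and DAF-16 is absent.

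Insulin-like peptides bind the receptor DAF-2, which acts through the kinases AGE-1, PDK-1, AKT-1 and AKT-2 to keep the FOXO transcription factor DAF-16 out of the nucleus. The *e1370* mutation impairs the receptor, so DAF-16 enters the nucleus and raises genes of stress resistance, detoxification and fat metabolism, and the worms live long. Deletion of *daf-16* by *mgDf50* suppresses most of these traits. Other branches below the receptor do not pass through DAF-16. Each genotype is represented by 1 strain, so the mutations and the rest of that strain's genetic background cannot be told apart. In mixed-stage cultures, a change in the share of a stage or tissue and a change of RNA per cell cannot be told apart either.

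Values are RPKM, read counts scaled by gene length and by the mapped reads of the library, as the authors deposited them. They were compared on log2(RPKM + 1), a scale that makes the changes of weakly expressed genes smaller, with limma in 1 fit over the 6 libraries. A call needed a change of 2-fold or more together with a p, before adjustment, of 0.05 or less. Nothing in the labels says that replicates came from separate cultures, so the p-values measure only the spread between these libraries. Steps in the low RPKM values put the depth at about 12900000 and 14500000 reads in *daf-16(-);daf-2(-)*, 13200000 and 9100000 in *daf-2(-)* and 14800000 and 12700000 in WT. The median difference between replicates, in log2 units over genes with a mean of at least 1 RPKM, was 0.24 in the double mutant and 0.20 in WT.

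Few genes were called between the double mutant and WT, and they belonged to many gene families. Smaller differences were more common, with 3966 genes at an unadjusted limma p of at most 0.05 when no fold change was required. Of 20661 genes, 294 (1.42%) were higher in *daf-16(-);daf-2(-)* than in WT and 152 (0.736%) were lower, 446 (2.16%) in all. At limma's Benjamini-Hochberg adjusted p of at most 0.05 these counts were 24 (0.116%) and 8 (0.0387%), and 0 and 0 when any single library was left out. The change exceeded 4-fold for 20 higher and 14 lower genes. In all of these called genes the 2 strains did not overlap, but over all genes both double mutant libraries lay above both WT libraries in 32.2% and below both in 15.9%.

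Scaling changed the balance of higher and lower genes. As deposited, 65.9% of the called genes were higher in the double mutant. Genes with a mean of at least 1 RPKM had a median log2 fold change of 0.10. Median-ratio scaling, which sets the typical ratio between libraries to 1, moved this median to -0.01. It left 192 genes higher (0.929%) and 210 lower (1.02%), so that 47.8% of the calls were higher. All 192 were among the 294 higher genes of the unscaled comparison, and all 152 lower genes of the unscaled comparison were among the 210. Changes of whole gene families below are given on both scales.

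The deleted gene fell in the double mutant. *daf-16* had 6.44 and 4.60 RPKM in the double mutant, 25.2 and 22.4 in *daf-2(-)* and 24.9 and 29.4 in WT. The double mutant libraries were apart from the other 4, with a log2 fold change against WT of -2.12 (SE 0.21, limma adjusted p = 0.040). *daf-2*, which e1370 changes without deleting it, had 15.5 and 10.2 RPKM in the double mutant and 8.20 and 8.88 in WT and was not called (log2 fold change 0.51). Of the 18 genes of the insulin signalling cascade, *daf-16* was the only one called. Among 39 insulin-like peptide genes, 1 (2.56%) was called higher, beside 1.42% over all genes. It was *ins-37*, with 4.35 and 3.47 RPKM in the double mutant and 0.77 and 1.94 in WT. That call was not kept with median-ratio scaling, where the log2 fold change was 0.99, or without double mutant replicate 1 (0.97) or WT replicate 1 (0.73).

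The genes with the largest increases were nearly silent in WT. *F56A4.3* had 24.1 and 49.6 RPKM in the double mutant, 74.4 and 24.2 in *daf-2(-)* and 0.80 and 0.00 in WT, a log2 difference of 4.73 with an SE of 0.58 (limma adjusted p = 0.053). Both mutant strains carried it well above WT. *srbc-15*, a chemoreceptor of the SRBC class, had the same pattern and the tightest replicates, with 10.9 and 10.7 RPKM in the double mutant, 12.3 and 11.5 in *daf-2(-)* and 0.07 and 0.00 in WT (log2 fold change 3.51, SE 0.21, limma adjusted p = 0.020). A second set was highest in the double mutant, with *daf-2(-)* far lower but above WT. *Y39B6A.24* had 13.4 and 14.5 RPKM in the double mutant, 1.33 and 2.21 in *daf-2(-)* and 0.33 and 0.88 in WT (log2 fold change 3.24). *F07B7.2*, *C38D9.2* and *W09B7.2* followed it, with log2 fold changes of 3.56, 3.30 and 3.20. In *daf-2(-)* these genes had, in that order, 2.16 and 4.81, 1.39 and 1.54, and 2.09 and 4.04 RPKM. The WT values were 0.60 and 0.39, 0.52 and 0.20, and 1.21 and 0.47 RPKM. *F55B11.6* and *Y19D10A.7*, at log2 fold changes of 4.13 and 3.70, had a higher level in *daf-2(-)*. It was 6.67 and 7.15 RPKM for *F55B11.6* and 8.75 and 4.74 RPKM for *Y19D10A.7*.

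**Figure D1:**
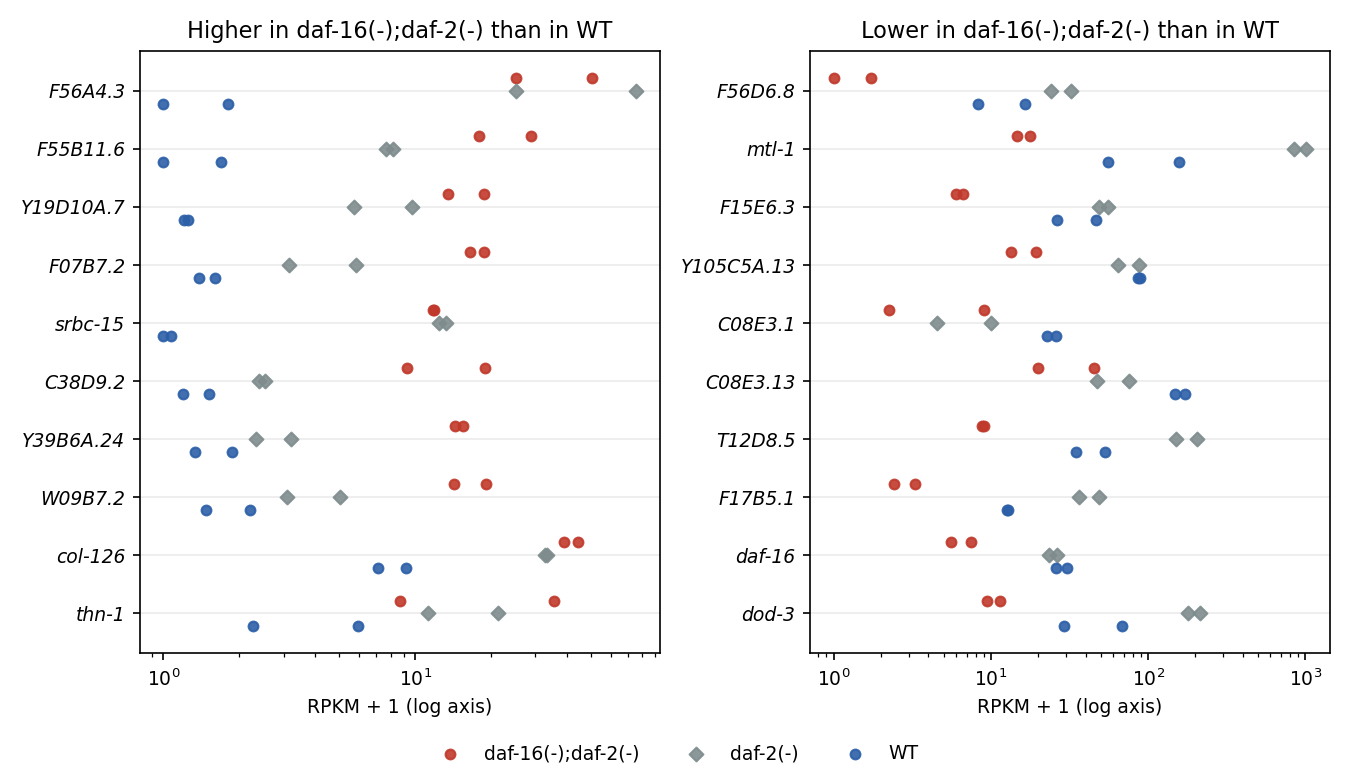
RPKM + 1 on a log axis of the 10 genes with the largest increase (left) and the 10 with the largest decrease (right) in *daf-16(-);daf-2(-)* against WT, among called genes with a mean of at least 10 RPKM in the higher strain. Each point is 1 library. Red circles are the double mutant, grey diamonds *daf-2(-)* and blue circles WT. The red and blue points do not overlap in any of the 20 genes, while the grey points lie beside red in some (*srbc-15*, *col-126*) and beyond blue in others (*mtl-1*, *dod-3*).

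Several of these genes lie next to each other on the chromosome. On the current WBcel235 map, which placed 19420 genes, 271 of them called higher and 140 lower, 19 pairs of neighbouring genes were both called higher and 14 pairs both lower. The higher pairs included *col-126* with *col-127* on chromosome IV and *hsp-16.2* with *hsp-16.41* on chromosome V. The same held for *W09B7.2* with *W09B7.1*, and *F56A4.3* was followed by *F56A4.9* and *F56A4.2*. The lower runs included *F56D6.9*, *F56D6.8* and *dct-8* on chromosome IV, all of them highest in *daf-2(-)*. *F56D6.8* had 0.74 and 0.00 RPKM in the double mutant, 31.4 and 23.3 in *daf-2(-)* and 7.31 and 15.5 in WT (log2 fold change -3.15, SE 0.41, limma adjusted p = 0.058). Among the 50 genes nearest to *daf-16* on chromosome I, 2 were higher (*C35E7.5* and *C35E7.6*) and 0 lower, and among the 50 nearest to *daf-2* on chromosome III none was called, beside 1.42% higher and 0.736% lower over all genes.

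The 10 genes with the largest decreases included *mtl-1* and *dod-3*, which are known DAF-16 targets. *mtl-1*, a metallothionein, had 13.7 and 16.8 RPKM in the double mutant, 1010 and 849 in *daf-2(-)* and 54.7 and 155 in WT. The 2 WT libraries differed by more than 2-fold but both lay above the double mutant (log2 fold change -2.53, SE 0.43, limma adjusted p = 0.115). Of 21 genes long known to need DAF-16 for their rise, 6 (28.6%) were lower and 1 higher than in WT, beside 0.736% and 1.42% over all genes. Their median log2 fold change was -0.66 (-0.77 scaled), beside 0.05 over all genes. The lower members were *mtl-1*, *dod-3*, the ferritin *ftn-1*, the glyoxylate cycle enzyme *icl-1*, the transhydrogenase *nnt-1* and the superoxide dismutase *sod-3*, and 2 of the 21 had a positive value, *fat-5*, not called, and *hsp-16.1*, called higher. *icl-1* had 118 and 110 RPKM in the double mutant, 726 and 772 in *daf-2(-)* and 248 and 342 in WT (log2 fold change -1.34, SE 0.18, limma adjusted p = 0.058).

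The size of these decreases depended on the WT libraries. *sod-3* had 2.83 and 2.81 RPKM in the double mutant, 178 and 183 in *daf-2(-)* and 4.57 and 9.57 in WT, so the decrease below WT was far smaller than the rise in *daf-2(-)*. Without WT replicate 2 its log2 fold change was -0.54 and that of *ftn-1* -0.87, and neither was called. Both calls were also lost with either double mutant library left out, at log2 fold changes of -1.01 and -1.0 for *sod-3* and -1.39 and -1.94 for *ftn-1*. The median log2 fold change of the 21 targets was -0.53 without WT replicate 2 and -1.09 without WT replicate 1. It was -0.47 and -0.77 without double mutant replicates 1 and 2. The opposite group, 11 genes known to fall when insulin signalling is low, had 1 (9.09%) called higher, beside 1.42% over all genes. That gene, *dod-22*, had 34.2 and 53.0 RPKM in the double mutant, 2.48 and 1.11 in *daf-2(-)* and 16.2 and 15.5 in WT. Its log2 fold change was 1.37. Without double mutant replicate 2 it was 1.06 and not called.

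The *hsp-16* genes went against that pattern. All 6 genes of the *hsp-16* family, small chaperones made under stress, were higher in the double mutant than in WT, by log2 fold changes of 1.14 to 2.09 (1.02 to 1.96 scaled). *hsp-16.2* had 349 and 340 RPKM in the double mutant, 339 and 206 in *daf-2(-)* and 90.6 and 76.2 in WT. Both mutant strains lay above WT, and the log2 fold change of the double mutant was 2.04 (SE 0.24, limma adjusted p = 0.044). *hsp-16.41* had 365 and 494 RPKM in the double mutant, 488 and 293 in *daf-2(-)* and 90.8 and 108 in WT (log2 fold change 2.09). Both were called with any single library left out. The other 4 form near-identical pairs, *hsp-16.1* with *hsp-16.11* and *hsp-16.48* with *hsp-16.49*, between which reads cannot be assigned with certainty. The number of small heat shock genes called higher was 5 without double mutant replicate 1 and 2 without each of the other 3 libraries.

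None of the rest of the 14 small heat shock genes was called higher, and over the 14 the median log2 fold change was -0.04 (-0.16 scaled) with 6 positive. *hsp-12.3* was lower, with 7.43 and 8.0 RPKM in the double mutant, 150 and 130 in *daf-2(-)* and 16.3 and 21.97 in WT, a log2 fold change of -1.19 that became -0.99 and lost its call without WT replicate 2. The inducible HSP70 genes, looked at after their values were seen, were higher as well. *hsp-70* had 33.9 and 31.2 RPKM in the double mutant, 113 and 46.8 in *daf-2(-)* and 9.69 and 9.11 in WT (log2 fold change 1.69). *F44E5.4* and *F44E5.5*, a near-identical pair, had log2 fold changes of 1.79 and 1.77. Of these 3 calls, 0 were kept without double mutant replicate 1, 1 without double mutant replicate 2 or WT replicate 2 and 3 without WT replicate 1, with the median log2 fold change then between 1.47 and 2.08. The 10 constitutive chaperones of the cytosol, among them *hsp-1* and the HSP90 gene *daf-21*, were not called, with log2 fold changes of 0.14 to 0.45 (0.02 to 0.32 scaled).

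**Figure D2:**
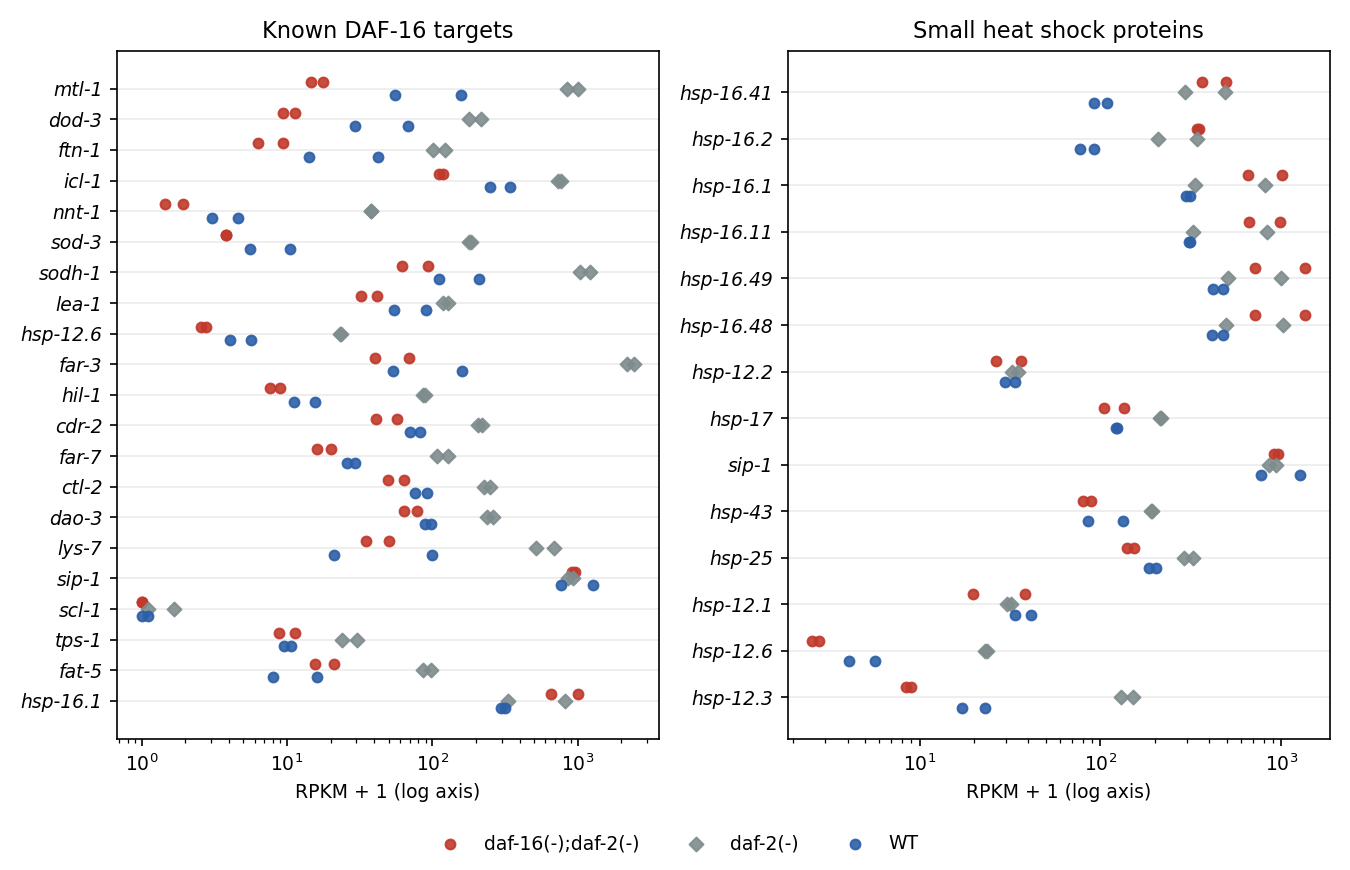
RPKM + 1 on a log axis of 21 known DAF-16 targets (left) and 14 small heat shock genes (right), 1 point a library, ordered by the change in *daf-16(-);daf-2(-)* against WT. Red circles are the double mutant, grey diamonds *daf-2(-)* and blue circles WT. Most targets lie lowest in the double mutant and highest in *daf-2(-)*, while the 6 *hsp-16* genes lie higher in the double mutant than in WT.

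Germline genes were higher in the double mutant as a group, mostly by less than 2-fold. Over the 242 genes of the 10 germline lists, 12 (4.96%) were higher and 1 (0.413%) lower, beside 1.42% and 0.736% over all genes, and the median log2 fold change was 0.56 (0.45 scaled). The higher count changed with the library left out, as did that over all genes, and the median then lay between 0.40 and 0.67. Called members included the *ssq* sperm genes, given below, and genes of P granules. P granules are the RNA and protein bodies that mark germ cells and their precursors. *pgl-1*, a P granule scaffold, had 112 and 77.6 RPKM in the double mutant, 33.2 and 27.01 in *daf-2(-)* and 42.1 and 24.5 in WT, a log2 difference of 1.51 with an SE of 0.29 (limma adjusted p = 0.147). *glh-2*, a germline RNA helicase of the Vasa type, had 41.7 and 27.7 RPKM in the double mutant, 7.68 and 5.79 in *daf-2(-)* and 15.97 and 9.96 in WT (log2 fold change 1.36, SE 0.30, limma adjusted p = 0.168). In both genes the double mutant libraries lay above the other 4.

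In all 16 P granule and germline Argonaute genes both double mutant libraries lay above both WT libraries, beside 32.2% of all genes. Their median log2 fold change was 0.84 (0.71 scaled), and 4 were called, *pgl-1*, *glh-2*, *pgl-3* (1.27) and *glh-1* (1.14). Double mutant replicate 1 was the higher library, and without it the median was 0.66 and 2 genes were called. The losses were *pgl-3* at a log2 fold change of 0.97 and *glh-1* at 0.91. Without double mutant replicate 2, 10 were called. *glh-1* was also lost without WT replicate 2, at 0.73. Of the uncalled members, the Argonaute *wago-1* had 168 and 125 RPKM in the double mutant and 71.8 and 79.1 in WT, and the Piwi protein gene *prg-1* had 62.1 and 46.3 RPKM in the double mutant and 26.4 and 33.1 in WT.

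Oocyte, meiotic and dividing-cell genes moved the same way without a call. All 24 oocyte and maternal RNA regulators had a positive log2 fold change, with a median of 0.76 (0.63 scaled) and none past 2-fold. *cey-2*, a Y-box RNA-binding protein of the germline, had 1044 and 833 RPKM in the double mutant, 288 and 253 in *daf-2(-)* and 493 and 656 in WT. The log2 fold change of 0.71 had an SE of 0.19. The 15 eggshell and egg activation genes had a median of 0.71 (0.59 scaled), the 24 meiotic chromosome genes 0.67 (0.55 scaled) and the 23 cell division genes 0.58 (0.46 scaled). All members of these lists were positive as deposited, and all but 1 oocyte and 1 eggshell gene after scaling. *him-3*, a protein of the meiotic chromosome axis, had 72.8 and 62.5 RPKM in the double mutant, 19.7 and 13.9 in *daf-2(-)* and 41.2 and 40.6 in WT. *cyb-3*, a cyclin of mitosis, had 365 and 331 RPKM in the double mutant, 85.2 and 76.3 in *daf-2(-)* and 174 and 282 in WT. The summed RPKM of the oocyte list was 4582 and 3842 in the double mutant, 1181 and 963 in *daf-2(-)* and 2297 and 2828 in WT.

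These medians held with each library left out but moved with it. The oocyte median lay between 0.59 without double mutant replicate 1 and 0.89 without double mutant replicate 2, and the cell division median between 0.43 without WT replicate 1 and 0.77 without WT replicate 2. Without double mutant replicate 2, 8 oocyte genes, 3 eggshell genes and 2 meiotic genes were called higher, and without WT replicate 2, 3 oocyte and 2 meiotic genes were.

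Sperm genes differed less, and unevenly. The 35 major sperm protein genes, whose product drives the crawling of sperm, had a median log2 fold change of 0.21 (0.08 scaled). Of the 35, 1 (2.86%), *msp-63*, was called higher (1.29), beside 1.42% over all genes. The median against WT was 0.02 in double mutant replicate 1 and 0.57 in replicate 2, so their level differed more between the double mutant libraries than between strains. Of 29 genes in other sperm-specific families, 4 (13.8%) were called higher, beside 1.42% over all genes. All 4 were *ssq* genes. *ssq-2* had 50.0 and 55.4 RPKM in the double mutant, 47.2 and 45.1 in *daf-2(-)* and 17.7 and 12.2 in WT (log2 fold change 1.77, SE 0.20, limma adjusted p = 0.043). The other *ssq* genes were higher by log2 fold changes of 1.41 to 1.63. All 4 were called with any single library left out, and *daf-2(-)* lay above WT too. The *ssq* genes are similar in sequence, so their reads may be shared, and 54.5% of the exons of *ssq-4* overlap *T28H11.7* on the other strand. Spermatogenesis genes had a median of 0.42 (0.33 scaled) over 26 members, with *cpb-1* called at 1.02. That call was lost with median-ratio scaling (0.90) and without double mutant replicate 1 (0.63) or either WT library (0.85 and 1.18).

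The vitellogenin genes, which encode yolk proteins made in the intestine, had a level that depended on the WT library. *vit-6* had 3332 and 3138 RPKM in the double mutant, 3563 and 4381 in *daf-2(-)* and 2146 and 4621 in WT, so the 2 WT libraries bracketed the double mutant. The 6 vitellogenin and yolk receptor genes had a median log2 fold change of 0.02 (-0.11 scaled), which was -0.54 without WT replicate 1 and 0.61, with all 6 positive, without WT replicate 2. *rme-2*, the yolk receptor of oocytes, had 180 and 130 RPKM in the double mutant, 32.1 and 24.4 in *daf-2(-)* and 83.8 and 85.5 in WT, a log2 fold change of 0.84. Of 44 early zygotic genes of the embryo, 2 (*sdz-7* and *sdz-36*) were higher and 1 lower, beside 1.42% and 0.736% over all genes. Of the 44, 33 were positive and the median log2 fold change was 0.28 (0.23 scaled). Without WT replicate 2, 12 were higher and the median was 0.47, while without WT replicate 1 none was higher and the median was 0.07. *sdz-7* also lost its call with either double mutant library left out (1.74 and 0.99), and *sdz-36* without double mutant replicate 1 (0.91) and with median-ratio scaling (0.97). The lower one, *sdz-24*, had 105 and 200 RPKM in the double mutant, 596 and 478 in *daf-2(-)* and 406 and 461 in WT (log2 fold change -1.57).

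**Figure D3:**
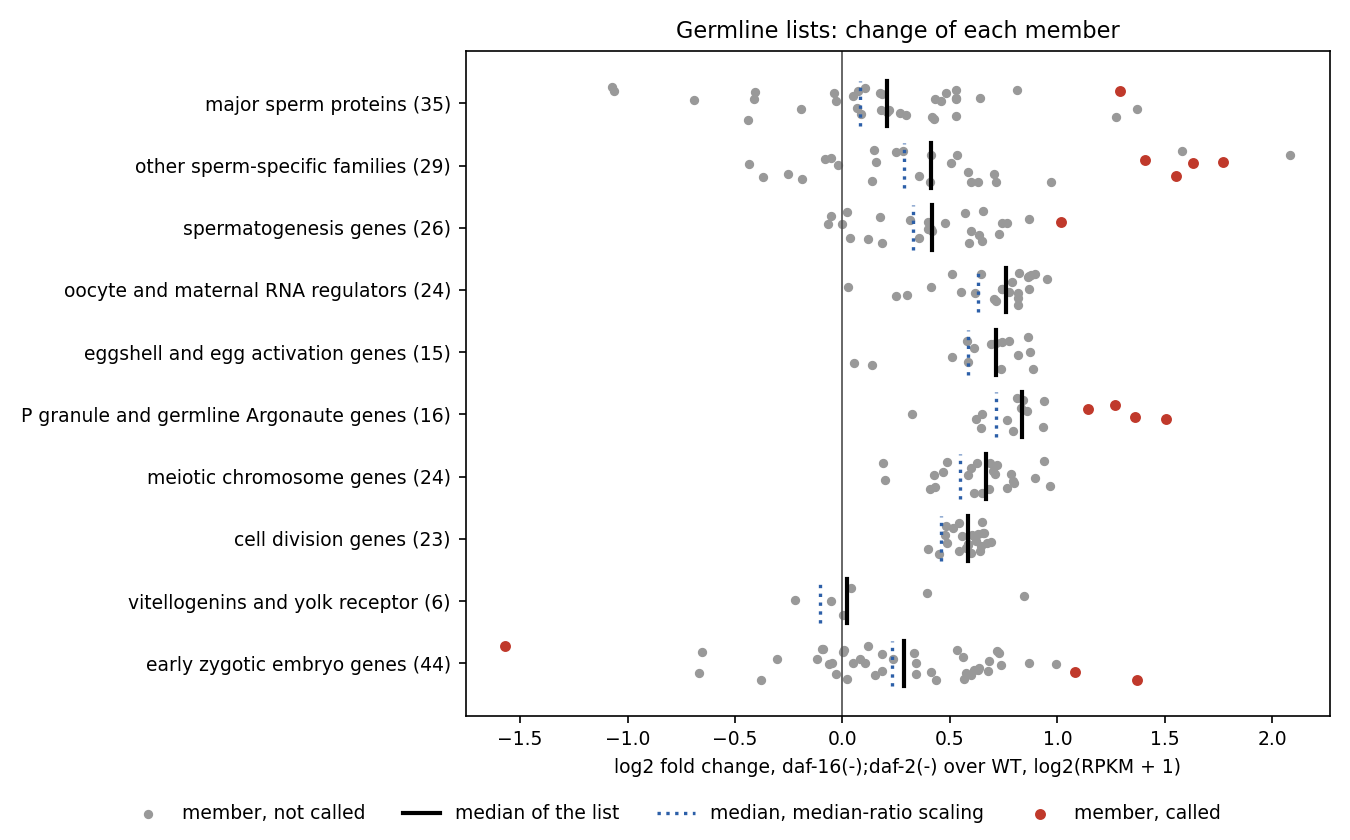
Log2 fold change of *daf-16(-);daf-2(-)* over WT on log2(RPKM + 1) for each member of the 10 germline lists, with the number of members in parentheses. Red points are called and grey points are not. The black bar is the median of the list and the blue dotted bar the median after median-ratio scaling. The oocyte, eggshell, P granule, meiotic and cell division lists lie wholly above 0 as deposited, with medians of 0.58 to 0.84, while the yolk list centres on 0.02.

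Among markers of stage, 2 of 3 adult collagens were called higher in the double mutant, beside 1.42% over all genes. The 2 called were both under 2-fold without WT replicate 2. The summed RPKM of 3 adult collagens was 1870 and 2323 in the double mutant, 3870 and 3963 in *daf-2(-)* and 1335 and 656 in WT. Of these, *col-19* had 1547 and 1846 RPKM in the double mutant and 1086 and 494 in WT. Its log2 fold change of 1.21 was 0.64 without WT replicate 2 and was then not called. The call was also lost with either double mutant library left out (1.33 and 1.08). *col-62* was called at 1.12 and lost its call with median-ratio scaling (0.996) and without double mutant replicate 2 (0.81) or WT replicate 2 (0.80). The 4 dauer cuticle genes summed to 5.38 and 3.36 RPKM in the double mutant, 35.7 and 88.2 in *daf-2(-)* and 3.40 and 2.47 in WT, and 1 of them, *cut-1*, was at 0 in 1 WT library. None of 12 muscle, 9 neuron and 7 intestine genes was called, with median log2 fold changes of -0.12, -0.10 and -0.22 (-0.23, -0.22 and -0.34 scaled). The part of stage and tissue make-up in the germline result was not tested.

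Collagens are the main proteins of the cuticle. Of 157 *col* genes, 14 (8.92%) were called higher in the double mutant and 0 lower, beside 1.42% and 0.736% over all genes, 122 were positive and the median log2 fold change was 0.26 (0.18 scaled). *col-126* had 38.1 and 43.6 RPKM in the double mutant, 31.7 and 32.3 in *daf-2(-)* and 8.16 and 6.10 in WT (log2 fold change 2.37, SE 0.18, limma adjusted p = 0.035). Its neighbour *col-127* had 36.5 and 44.5 RPKM in the double mutant, 33.5 and 28.8 in *daf-2(-)* and 9.46 and 6.77 in WT (log2 fold change 2.2). *col-137* had 32.01 and 35.1 RPKM in the double mutant, 35.7 and 37.1 in *daf-2(-)* and 11.1 and 9.88 in WT (log2 fold change 1.59). In these 3 genes the mutant strains lay close together and apart from WT. *col-176* differed, with 97.6 and 77.0 RPKM in the double mutant, 294 and 297 in *daf-2(-)* and 36.5 and 25.6 in WT (log2 fold change 1.47), so the double mutant was intermediate.

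The count of collagens depended on the library left out, and which *col* genes were called changed without either double mutant library as well. The *col* genes were higher in WT replicate 1 than in WT replicate 2 by a median of 0.37 in log2 units. Without WT replicate 1, 37 *col* genes were higher and 1 lower, while without WT replicate 2, 7 were higher. The higher count was 7 with median-ratio scaling and 8 in a fit of the 4 libraries alone. The *col* median was 0.26 and 0.28 without double mutant replicates 1 and 2. The other cuticle lists had medians near or below 0. The 19 collagens that shape the body, such as *dpy-5* and *dpy-13*, had a median of -0.18 (-0.30 scaled) and no call, with the sign turning to 0.02 without WT replicate 1. The 35 cuticlins and 15 moulting genes had medians of -0.07 and -0.06 (-0.19 and -0.15 scaled) with none called. The moulting median turned to 0.22 without double mutant replicate 2 and 0.11 without WT replicate 1, and in the last case 1 gene was called higher. Of 84 hedgehog-related and Patched-related genes, *wrt-8* was lower, with 6.25 and 6.47 RPKM in the double mutant, 9.30 and 6.16 in *daf-2(-)* and 14.2 and 16.2 in WT (log2 fold change -1.14). *grd-1* was called higher at 1.06 but lost the call with median-ratio scaling (0.94) and without WT replicate 2 (0.64) or either double mutant library (0.86 and 1.25).

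Immune genes divided by family. Of 9 genes used as markers of the response to bacterial pathogens, 5 were higher and 0 lower, beside 1.42% and 0.736% over all genes. Their median log2 fold change was 1.33 (1.2 scaled). *F35E12.5*, a CUB-domain gene induced by pathogens, had 160 and 230 RPKM in the double mutant, 39.2 and 42.8 in *daf-2(-)* and 59.8 and 71.0 in WT (log2 fold change 1.54, SE 0.20, limma adjusted p = 0.058). *irg-1*, a gene induced by *Pseudomonas aeruginosa*, had 16.4 and 23.6 RPKM in the double mutant, 4.21 and 3.74 in *daf-2(-)* and 6.5 and 6.14 in WT (log2 fold change 1.5). *F08G5.6* had 364 and 503 RPKM in the double mutant, 182 and 195 in *daf-2(-)* and 161 and 179 in WT (log2 fold change 1.33). The double mutant was the highest strain in all 3, and their calls were kept when any single library was left out.

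*T24B8.5*, a reporter of the PMK-1 p38 kinase pathway, had 194 and 214 RPKM in the double mutant, 71.1 and 53.4 in *daf-2(-)* and 40.9 and 99.1 in WT. Its log2 fold change was 1.66, and the call was lost with either double mutant library left out, at log2 fold changes of 1.73 and 1.59. *dod-22* was the other called member. The median log2 fold change of the list lay between 1.03 and 1.56 with 1 library left out. Which members were called changed when either double mutant library was left out. The remaining 4 members, *irg-2*, *irg-3*, *C17H12.8* and *K08D8.5*, had log2 fold changes of -0.07 to 0.77.

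The C-type lectins, secreted carbohydrate-binding proteins, include many that respond to infection. Of 235 *clec* genes, 4 (1.70%) were higher and 9 (3.83%) lower, beside 1.42% and 0.736% over all genes, or 3 and 10 scaled, and the median log2 fold change was 0.03 (0.00 scaled). *clec-41* had 58.6 and 67.1 RPKM in the double mutant, 111 and 140 in *daf-2(-)* and 16.3 and 19.7 in WT (log2 fold change 1.75, SE 0.18, limma adjusted p = 0.040). *clec-76* had 1.95 and 1.45 RPKM in the double mutant, 6.23 and 4.35 in *daf-2(-)* and 9.20 and 8.87 in WT (log2 fold change -1.90, SE 0.25, limma adjusted p = 0.060). *clec-52* had 15.7 and 22.4 RPKM in the double mutant, 765 and 712 in *daf-2(-)* and 39.6 and 49.5 in WT, and its log2 fold change of -1.2 was -0.95 without double mutant replicate 1, under the fold threshold. *clec-209* was called higher at 1.58 and lost that call without double mutant replicate 2 (1.43), and its values are nearly those of *F56A4.2*, so the 2 entries may count the same reads. Without 1 library the lower count was 4 to 11, lowest without WT replicate 2, and 5 without double mutant replicate 1. The higher count was 3 to 7, highest without WT replicate 2.

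The antimicrobial families had few calls. Of 23 saposin-like *spp* genes 3 had a positive log2 fold change, and the median was -0.38 (-0.50 scaled). *spp-2* had 44.6 and 61.0 RPKM in the double mutant, 202 and 240 in *daf-2(-)* and 115 and 137 in WT (log2 fold change -1.25, SE 0.19, limma adjusted p = 0.094). Among 56 antimicrobial peptide genes 1 was higher and 2 (*fipr-24* and *fipr-26*) lower, beside 1.42% and 0.736% over all genes. In each of the 4 libraries 11 to 13 of the 56 were at 0. The median log2 fold change was -0.17 (-0.24 scaled). That median was 0.00 without double mutant replicate 1 and -0.41 without double mutant replicate 2. *fipr-24* and *fipr-26* lost their calls without double mutant replicate 1 (-0.56 and -1.32) or WT replicate 2 (-1.44 and -0.84), *fipr-24* also without WT replicate 1 (-1.46) and *fipr-26* without double mutant replicate 2 (-1.79). The higher one, *cnc-7*, lost its call with median-ratio scaling (0.91) and without either double mutant library (1.41 and 0.67) or WT replicate 1 (0.44). As deposited, none of 10 *lys* and 5 *ilys* lysozyme genes was called. *ilys-5*, expressed at 937 and 1151 RPKM in the double mutant, 21.4 and 18.9 in *daf-2(-)* and 1476 and 2567 in WT, had a log2 fold change of -0.91, and of -1.03 scaled, where it was called lower. *thn-1*, a thaumatin-family gene, was the only *thn* gene called, at 7.72 and 34.7 RPKM in the double mutant and 1.27 and 4.95 in WT. Its log2 fold change of 2.26 was 1.25 without double mutant replicate 2 and 1.57 without WT replicate 1, and was called in neither case.

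**Figure D4:**
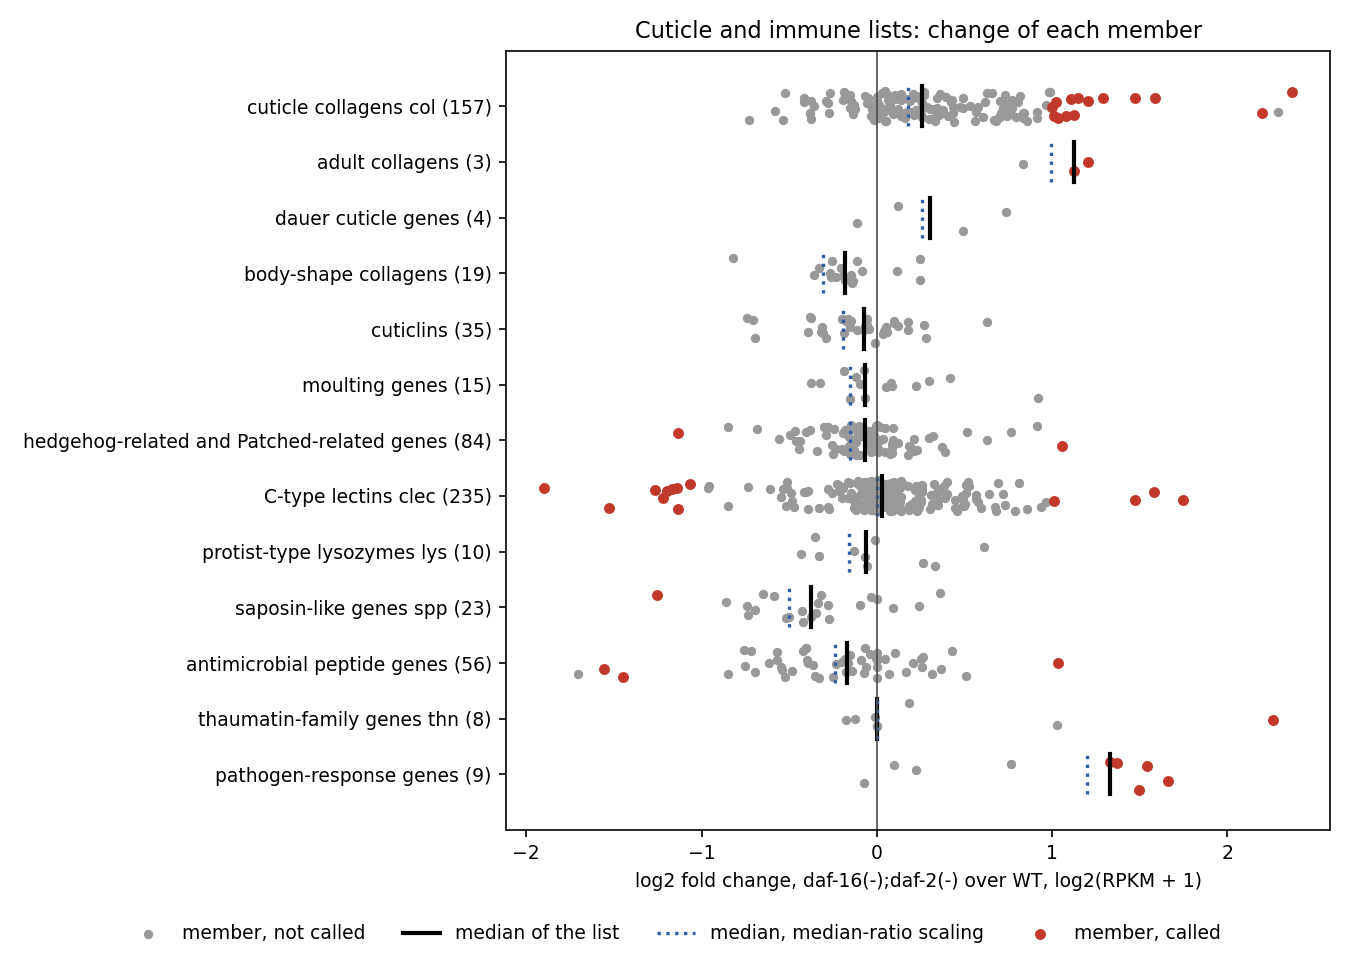
Log2 fold change of *daf-16(-);daf-2(-)* over WT on log2(RPKM + 1) for each member of 13 cuticle and immune lists, with the number of members in parentheses. Red points are called and grey points are not. The black bar is the median of the list and the blue dotted bar the median after median-ratio scaling. The called *col* genes all lie to the right of 1, the *clec* genes spread both ways, and the pathogen-response list has its median at 1.33.

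Few metabolic genes were called. Over the 477 genes of the metabolic lists 0 were called higher and 6 (1.26%) lower, beside 0.736% over all genes, and the median log2 fold change was -0.12 (-0.23 scaled). At median-ratio scaling 10 of the 477 were lower and 0 higher, beside 1.02% and 0.929% over all genes. In the fit of the 4 libraries 3 were lower and 0 higher. The median was -0.04 and -0.20 without double mutant replicates 1 and 2 in turn, and -0.17 and -0.07 without WT replicates 1 and 2. In these fits the number of members called lower rose and fell with that over all genes. Some members were called higher in each of them. The lower genes were enzymes of fat use and detoxification. *acs-2*, an acyl-CoA synthetase that starts fatty acid oxidation, had 21.1 and 17.8 RPKM in the double mutant, 129 and 128 in *daf-2(-)* and 40.1 and 44.6 in WT (log2 fold change -1.09, SE 0.15, limma adjusted p = 0.060). It fell just under the threshold without double mutant replicate 2, at -0.97. *gst-29*, a glutathione S-transferase, had 0.59 and 0.94 RPKM in the double mutant, 76.1 and 85.9 in *daf-2(-)* and 3.85 and 6.57 in WT (log2 fold change -1.79, SE 0.27, limma adjusted p = 0.093).

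The other calls were *icl-1*, the lipase *lipl-2* and 2 cytochrome P450 genes. *lipl-2* had 18.03 and 34.8 RPKM in the double mutant, 198 and 169 in *daf-2(-)* and 46.0 and 67.9 in WT. Its log2 fold change of -1.12 was -0.67 without double mutant replicate 1 and -0.85 without WT replicate 2, and it was then not called. *cyp-13A5* had 2.04 and 2.36 RPKM in the double mutant, 37.5 and 38.4 in *daf-2(-)* and 4.54 and 11.3 in WT. Its call at -1.37 and that of *cyp-29A4* at -1.04 were lost without WT replicate 2 (-0.79 and -0.54) and with either double mutant library left out (-1.30 and -1.44 for *cyp-13A5*, and -0.88 and -1.2 for *cyp-29A4*).

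As deposited, no desaturase, TCA cycle, respiratory chain or trehalose gene was called. The 7 fatty acid desaturases had a median of -0.06 (-0.19 scaled), the 39 genes of the TCA cycle and respiratory chain -0.13 (-0.25 scaled) and the 9 trehalose genes -0.01 (-0.12 scaled, with *lea-1* then called at -1.06). *fat-2*, an oleate desaturase, had 588 and 740 RPKM in the double mutant, 1368 and 1342 in *daf-2(-)* and 661 and 934 in WT, a log2 fold change of -0.25 (SE 0.21). *elo-6*, an elongase, had 531 and 866 RPKM in the double mutant, 1248 and 901 in *daf-2(-)* and 1133 and 1242 in WT, which was lower in both double mutant libraries than in both WT libraries but under 2-fold (log2 fold change -0.81, and -0.93 scaled). The 8 tyrosine and tryptophan breakdown genes had a median of -0.38 (-0.51 scaled), with 1 positive. Medians were -0.23 (-0.36 scaled) over 17 genes of glycolysis and gluconeogenesis, -0.22 (-0.34 scaled) over 46 glutathione S-transferases, -0.32 (-0.44 scaled) over 25 lipid transport and lipase genes and -0.01 (-0.13 scaled) over 53 genes of fatty acid activation and oxidation. With 1 library left out the lipid transport and lipase median ranged from -0.56 to -0.04 and the glutathione S-transferase median from -0.37 to -0.08, both nearest 0 without double mutant replicate 1. *hpd-1*, which breaks down tyrosine, had 299 and 343 RPKM in the double mutant, 463 and 461 in *daf-2(-)* and 401 and 428 in WT.

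Ribosomal protein genes were slightly lower, with a median of -0.21 (-0.34 scaled) over 78 members, of which 7 were positive and none was called. In 53 of the 78 both double mutant libraries lay below both WT libraries, beside 15.9% of all genes. The 12 methionine cycle and phosphatidylcholine genes went mostly the other way, with a median of 0.18 (0.06 scaled), 9 positive and none called. In 8 of them both double mutant libraries lay above both WT libraries, and in 2 below. The lowest value in this list was that of *ahcy-1*, which recycles methionine-derived homocysteine. *ahcy-1* had 1855 and 1932 RPKM in the double mutant, 1690 and 1710 in *daf-2(-)* and 2807 and 2436 in WT. Its log2 fold change of -0.47 was larger than its SE of 0.16 but not past the fold threshold.

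**Figure D5:**
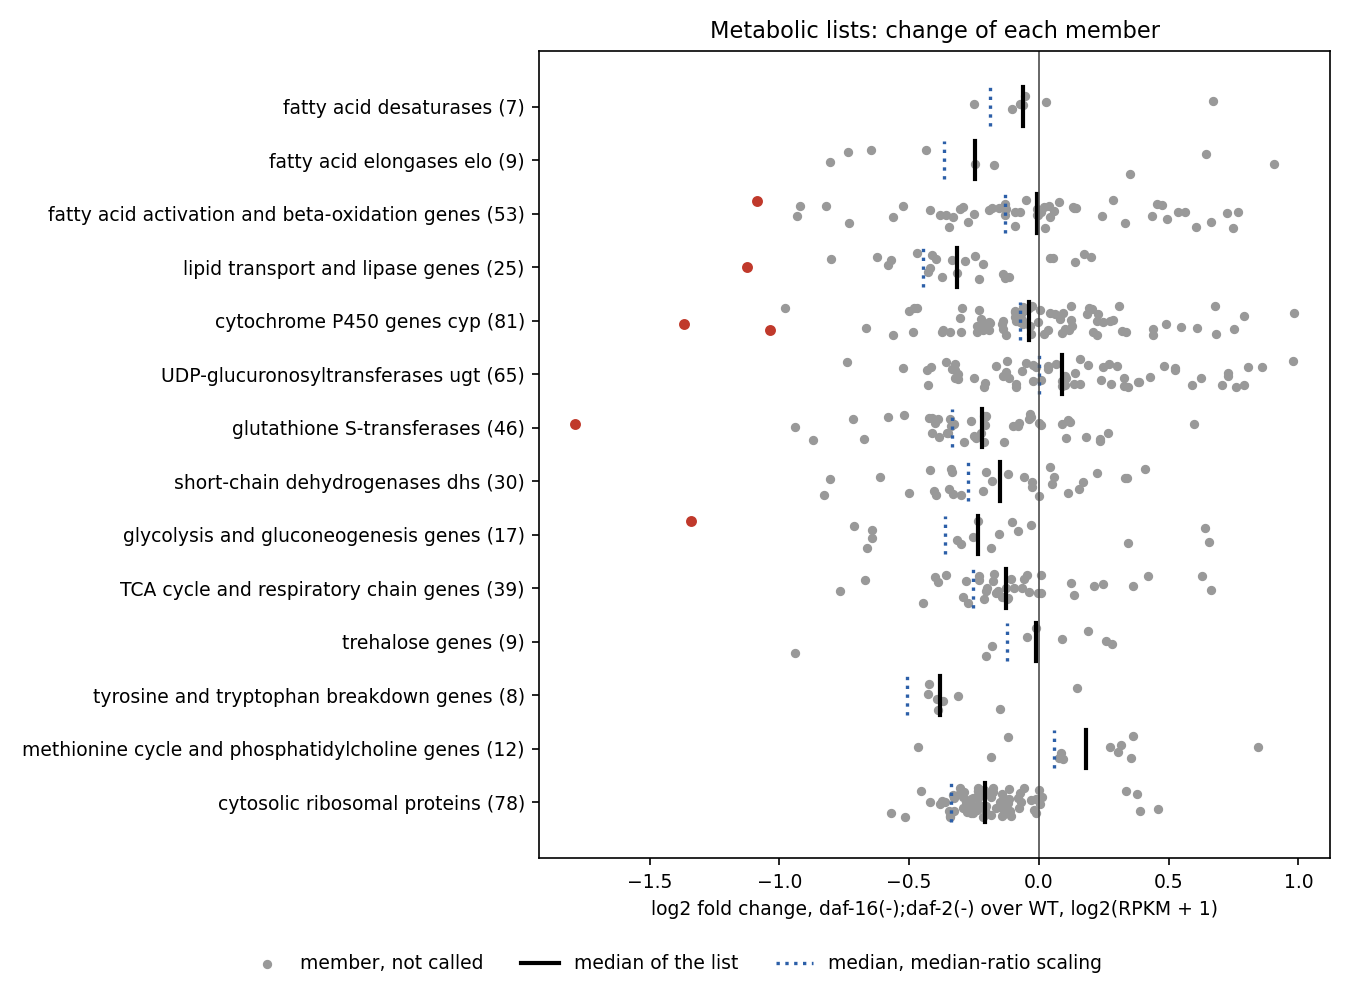
Log2 fold change of *daf-16(-);daf-2(-)* over WT on log2(RPKM + 1) for each member of 14 metabolic lists, with the number of members in parentheses. Red points are called and grey points are not. The black bar is the median of the list and the blue dotted bar the median after median-ratio scaling. The 6 called genes all lie below -1, and the medians lie between -0.38 and 0.18.

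The changes are also described by chromosome, with no test. By name, 19420 of the 20661 genes could be placed on WBcel235. Among genes with a mean of at least 1 RPKM the median log2 fold change was 0.23 on chromosome I, 0.15 on II, 0.17 on III, 0.15 on IV, 0.02 on V and -0.11 on X, against 0.09 over all placed genes. The share of genes called lower was highest on V, at 1.14%, beside 0.721% over all placed genes.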

How the data were processed

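RNA from mixed-stage cultures of *daf-16(-);daf-2(-)*, *daf-2(-)* and WT was sequenced with 2 replicates a strain. The authors aligned reads to the WS230 genome in CLC Genomics Workbench and deposited RPKM values per gene, 1 table a strain. The labels name CASAVA 1.8.2. How reads matching several genes were treated and whether strand was used are not given in the sources used here. The *daf-2(-)* table writes large RPKM with a comma in the number, which was removed before use. RPKM holds no counts, so count models and counting intervals were not used. Depth was inferred from the step that 1 read makes in low RPKM, with exon lengths of WBcel235, and is approximate. Between 51.4% and 63.2% of values of about 1 to 3 reads lay within 0.15 of a whole number.

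The tables were joined by gene name, with an absent gene taken as 0. Names on more than 1 line (6) were left out, and 109 entries with a position after the name were kept. The 20661 genes were put on the log2(RPKM + 1) scale and fitted over 6 libraries by limma 3.58.1 (R 4.3.3), with the spread allowed to follow the mean (3.86 prior degrees of freedom) and Benjamini-Hochberg adjustment. The fit was tested on simulated data. The members and the 48 gene lists, written from general knowledge, were chosen with earlier results of these data known, so lists are given by counts and medians with no test. Named genes are *daf-16*, *daf-2* and called genes of the insulin cascade, the 10 largest changes each way with a mean of at least 10 RPKM in the higher strain and no overlap, up to 4 called members of a list each way with at least 5 RPKM, or the 2 most expressed where none was called, and genes at 0 in 1 strain with at least 5 RPKM in the other. Other names were chosen after their values were seen: *ins-37*, *wago-1*, *prg-1*, *rme-2*, the inducible HSP70 genes, the neighbouring genes and members named to complete a count. Alternatives were pseudocounts of 0.1 and 0.5, a filter on mean RPKM, median-ratio and quantile scaling, no trend, a fit of the 4 libraries, adjusted p, the replicate number as a block, and each library left out.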

Additional observations from a re-analysis of the deposited data

How the results depend on the processing

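The count of 294 higher and 152 lower genes was 792 and 406 with a pseudocount of 0.1, 452 and 224 with 0.5, 290 and 157 among genes averaging 1 RPKM or more, 205 and 208 after quantile normalization, 192 and 210 after median-ratio scaling, 287 and 148 without the trend, and 232 and 109 in a fit of the 4 libraries alone. At limma's adjusted p it was 24 and 8, at most 77 and 33 with the RPKM filter, 1 and 0 without the trend, and 0 and 0 with the replicate block, with any 1 library left out and in the fit of the 4 libraries, where 232 and 109 passed unadjusted. With 1 library left out, the higher count ranged from 244 to 421 and the lower count from 92 to 383. The share of higher genes among the calls was 49.6% with quantile normalization. Replicate numbers pair no samples in the labels, and deviations of same-numbered libraries correlated at 0.16 between the double mutant and WT and -0.16 between the double mutant and *daf-2(-)* over 14395 genes. With the replicate number as a block, 299 genes were higher and 158 lower. In all, 134 genes, 94 higher and 40 lower, were called under every alternative except adjusted p. Of the 66 called genes the rule names, 61 kept the call after quantile normalization, 60 with median-ratio scaling, 55 in the fit of the 4 libraries, 48 to 58 with 1 library left out and 18 at adjusted p, and none reversed.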

Other observations

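A family that none of the lists covered, chosen after its values were seen, was lower in the double mutant. Of 14 *abu* genes, which encode proteins rich in glutamine and asparagine, 7 were lower and 0 higher, beside 0.736% and 1.42% over all genes. Their median log2 fold change was -1.1 (-1.15 scaled). *abu-11* had 3.25 and 3.22 RPKM in the double mutant, 0.48 and 0.52 in *daf-2(-)* and 12.5 and 10.5 in WT (log2 fold change -1.55), and *pqn-2*, of the related *pqn* genes, had 1.1 and 2.63 RPKM in the double mutant, 0.44 and 0.49 in *daf-2(-)* and 9.90 and 8.57 in WT (log2 fold change -1.89). WT was highest and *daf-2(-)* lowest in both. The *abu* count was 6 to 8 with 1 library left out. Over the 79 *abu* and *pqn* genes together 11 were lower, 43 were positive and the median was 0.03 (-0.03 scaled). These genes are similar in sequence and *abu-15*, *abu-6* and *abu-7* are neighbours on chromosome V, so reads may be shared.

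The transporter genes *pgp-5* and *pgp-6*, also chosen after their values were seen, stood out of 15 P-glycoprotein genes. *pgp-5* had 23.5 and 30.3 RPKM in the double mutant, 2.47 and 2.21 in *daf-2(-)* and 5.69 and 6.85 in WT (log2 fold change 1.93), and *pgp-6* had 30.03 and 40.7 RPKM in the double mutant, 2.76 and 1.64 in *daf-2(-)* and 8.91 and 9.01 in WT (log2 fold change 1.85). No other P-glycoprotein gene was called. Over all genes 1.42% were called higher and 0.736% lower. Of 72 histone genes 6 were lower, 2 to 9 with 1 library left out, and of 10 *nspa* genes 5 were lower, 1 or 2 with 1 library left out.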
